A study of Dugesia japonica with 16 samples.

Results

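The comparison set posterior pieces of the freshwater planarian *Dugesia japonica* treated with MCTR3 against pieces treated with PCTR3 or RCTR3, the latter taken as 1 group. It used 12 of the 16 RNA sequencing libraries of the series: 4 with MCTR3 at 10 nM, 4 with PCTR3 at 10 nM and 4 with RCTR3 at 10 nM. The remaining 4 libraries, from pieces in vehicle (0.1% ethanol in water), stand beside some results as a reference. Worms of every group were held at 20 °C, starved for 7 days and cut behind the eyes, and the pieces without a head were collected 48 h after they were placed in the test water. The libraries were chosen by their titles and not by any measured value. The labels give neither the ethanol content of the conjugate groups nor the number of worms in a library. By the numbers in their titles the MCTR3 libraries run from 5 to 8 and those with PCTR3 or RCTR3 from 9 to 16, so that position in the numbering and compound cannot be told apart. They do not say whether libraries of a group came from separate batches of worms, and the p-values measure the spread between libraries, which may be technical.

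Planarians rebuild a missing head from neoblasts, adult stem cells that divide and supply a bud of new tissue (the blastema) at the wound, while the older tissue of the piece is remodelled. MCTR3, PCTR3 and RCTR3 are the cysteinyl members of the maresin, protectin and resolvin conjugates in tissue regeneration, a class of lipid mediators that vertebrate cells make from docosahexaenoic acid as inflammation resolves. Members of this class have been reported to speed planarian regeneration. The conjugates share the cysteine residue and the fatty acid chain, and differ in the chain positions of the cysteinyl and hydroxyl groups. RCTR3 has a further hydroxyl group.

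Levels are TPM, a length-corrected share of the library's RNA reads, summed over the transcripts of an assembly component. A component is the set of transcripts that share an identifier up to the transcript number. The file holds 16873 components, of which 15690 (93.0%) reached 1 TPM in 4 or more of the 12 libraries and were tested. Of those, 14702 reached 1 TPM in all 12. At the edge of this filter, 75 components reached 1 TPM in exactly 4 libraries (median level 0.879 TPM) and 111 in exactly 3 (median 0.811 TPM, not tested). The filter let in 66 components that were under 1 TPM in every MCTR3 library and 0 that were under it in every PCTR3 and RCTR3 library. Of these 66, which could pass only through the libraries where they were high, 29 are among the components called lower with MCTR3. The deposited file pairs no component with a gene name, so components are given by identifier, no function is attached to them, and the tissue could not be checked against marker genes. Since whole pieces were sequenced, fewer cells of a type and less RNA per cell cannot be told apart.

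MCTR3-treated pieces differed from PCTR3- and RCTR3-treated pieces in many components, nearly all by little. Of the 15690 components, 5221 (33.3%) passed the test, 2637 (16.8%) higher with MCTR3 and 2584 (16.5%) lower (limma, Benjamini-Hochberg adjusted p under 0.05). The median difference was 0.27 on the log2(TPM + 1) scale among the higher ones, a 1.20-fold difference, and -0.34 among the lower ones, a 1.27-fold difference. The larger differences lay mostly on the lower side: 300 components were more than 1.5-fold lower with MCTR3 and 74 more than 1.5-fold higher, and 27 were more than 2-fold lower against 2 more than 2-fold higher. Over all 15690 tested components, called or not, all 4 MCTR3 libraries lay above all 8 others in 1520 and below all 8 in 1213. Of these, 1467 and 1186 were called. These calls rest on MCTR3 and the other conjugates alone and do not use vehicle.

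**Figure D1:**
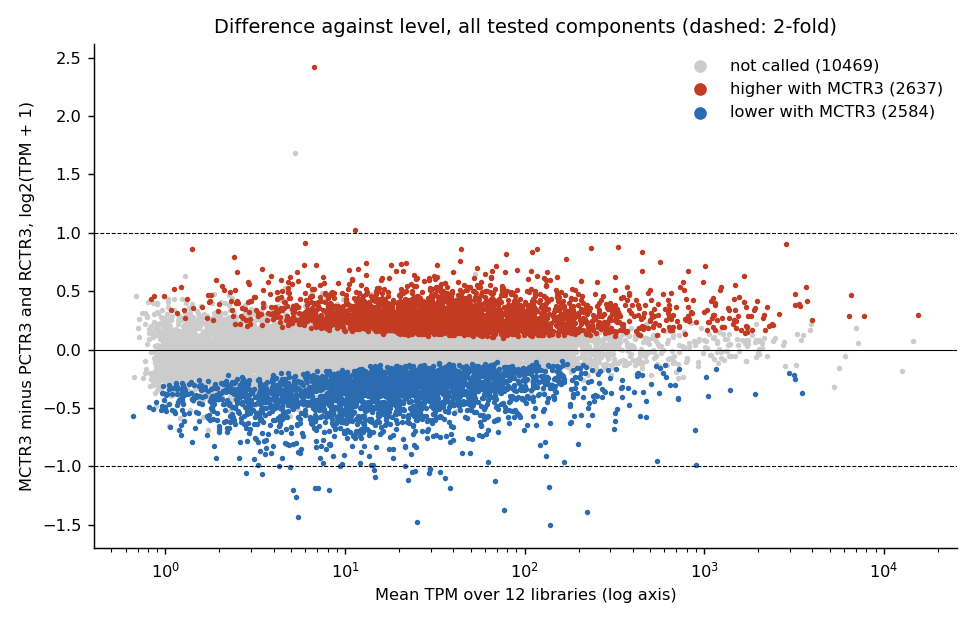
Each point is 1 of the 15690 tested components, with its mean TPM over the 12 libraries on a log axis and the MCTR3 minus PCTR3 and RCTR3 difference in log2(TPM + 1) on the other. Grey points were not called, red points were higher and blue points lower with MCTR3, and the dashed lines mark 2-fold, beyond which 27 blue and 2 red points lie.

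The balance of higher and lower calls rested on how libraries were scaled to each other. With the deposited scaling 50.5% of the calls were higher with MCTR3. After rescaling every library to 1 common TPM sum, 1538 were higher and 3903 lower (28.3% higher), and after rescaling to the sum over all but the 100 most abundant components 1873 were higher and 3387 lower. Median centring gave 2957 and 2315, and quantile normalization 2677 and 2377. The excess of lower components beyond 1.5-fold was present under all 5 of these scalings, from 238 lower and 78 higher with quantile normalization to 461 lower and 41 higher with the common sum.

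Of the components lower with MCTR3, comp68056_c0 had the largest difference by the rule used to name components. That rule kept only called components whose MCTR3 libraries did not overlap the other 8. For each component it named in this comparison the separation was thus required and is no result. It stood at 72.9, 51.2, 56.4 and 52.9 TPM in MCTR3 libraries 1 to 4, at 130, 186, 77.3 and 143 TPM in the PCTR3 libraries, and at 290, 148, 176 and 282 TPM in the RCTR3 libraries. The MCTR3 libraries were thus the 4 lowest of the 12, and PCTR3 library 3 came closest to them. The means were 58.4 ± 9.94 TPM (SD, n = 4) with MCTR3 and 179 ± 73.9 TPM (SD, n = 8) with the others, a log2(TPM + 1) difference of -1.504 (SE 0.27; limma adjusted p = 0.0012). Vehicle stood at 82.7 ± 15.97 TPM (SD, n = 4). The component holds a single transcript.

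comp144303_c2, also a single transcript, had the smallest adjusted p of the 15690 components. It stood at 12.2, 10.9, 11.3 and 9.03 TPM with MCTR3, at 35.3, 40.9, 29.1 and 26.7 TPM with PCTR3, and at 39.7, 30.7, 26.2 and 28.6 TPM with RCTR3. As the naming rule required, the groups did not overlap: the highest MCTR3 value was 12.2 TPM and the lowest of the other 8 was 26.2 TPM. The log2(TPM + 1) difference was -1.47 (SE 0.12; limma adjusted p = 3.2e-05). Vehicle stood at 8.30 ± 1.69 TPM (SD, n = 4), the lowest of the 4 groups. The tested component that shares its number, comp144303_c1, was also lower with MCTR3, at 54.4 against 66.2 TPM (limma adjusted p = 0.0083).

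On the higher side, comp126198_c5 led the named components that were above 0 in every library. Its MCTR3 libraries held 16.3, 16.3, 18.9 and 17.6 TPM. The PCTR3 libraries held 9.42, 4.57, 9.01 and 10.6 TPM and the RCTR3 libraries 3.78, 8.55, 8.57 and 13.2 TPM, all below the lowest MCTR3 library. The log2(TPM + 1) difference was 1.03 (SE 0.23; limma adjusted p = 0.0039), and vehicle stood at 18.9 ± 3.12 TPM (SD, n = 4). The file has 5 further tested components with the same number, and 4 of them were also higher with MCTR3, by 0.72 (comp126198_c0), 0.69 (comp126198_c3), 0.40 (comp126198_c4) and 0.55 (comp126198_c6) on the log2(TPM + 1) scale. The last of them, comp126198_c1, had 11.5 and 9.07 TPM and did not pass (limma adjusted p = 0.089). The labels do not say how such components relate to each other or whether reads were split between them.

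comp135961_c0 was the next on the higher side. Its MCTR3 values were 9.60, 8.91, 8.67 and 8.78 TPM, a range of under 1 TPM. The PCTR3 values were 3.15, 5.55, 2.61 and 6.36 TPM and the RCTR3 values 5.40, 2.55, 4.47 and 5.94 TPM. The log2(TPM + 1) difference was 0.91 (SE 0.19; limma adjusted p = 0.0027). Here vehicle overlapped both sides, from 5.501 to 10.7 TPM with a mean of 7.09 ± 2.46 (SD, n = 4).

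Beyond the rule for the joint comparison, 3 components were singled out after their values were seen. comp141186_c0 was the only called component beyond 4-fold on the log2(TPM + 1) scale. Its MCTR3 libraries held 15.3, 12.5, 17.0 and 12.03 TPM, its PCTR3 libraries 4.72, 0.00582, 9.97 and 0 TPM, and its RCTR3 libraries 2.21, 1.93, 5.07 and 0.0921 TPM. The 8 other libraries were all lower than the 4 MCTR3 libraries, yet they spread from a listed 0 to 9.97 TPM. The log2(TPM + 1) difference was 2.42 (SE 0.56; limma adjusted p = 0.005), and vehicle stood at 16.5 ± 4.17 TPM (SD, n = 4). With values at or near 0 in 3 libraries, that size hung on the pseudocount: it was 1.36 with a pseudocount of 5, which is under 4-fold, and 3.67 with 0.1 (limma adjusted p from 0.00081 to 0.022 over the alternatives). Its neighbours by number were not higher with MCTR3. comp141186_c1 did not pass, with a log2(TPM + 1) difference of -0.01 (limma adjusted p = 0.87). comp141186_c5 was lower with MCTR3, by -0.17 (limma adjusted p = 0.007).

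comp67611_c0 was the most abundant component that was more than 1.5-fold higher with MCTR3. The MCTR3 libraries held 4214, 4005, 4209 and 3887 TPM, the PCTR3 libraries 2123, 1746, 3046 and 2814 TPM, and the RCTR3 libraries 1844, 1423, 2566 and 2387 TPM. The groups did not overlap, and the mean with MCTR3 was 1.82 times the mean of the other 8 (log2(TPM + 1) difference 0.90, SE 0.16; limma adjusted p = 0.0013). Vehicle was higher still, at 4456 to 5634 TPM.

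comp127071_c0 was the most abundant component more than 1.5-fold lower with MCTR3. Its levels were 589, 550, 465 and 479 TPM with MCTR3, 790.1, 1584, 688 and 929 TPM with PCTR3, and 1706, 857, 809 and 1352 TPM with RCTR3. All 4 MCTR3 libraries lay below the other 8 (log2(TPM + 1) difference -0.99, SE 0.22; limma adjusted p = 0.0036). The vehicle libraries spread widely, from 178 to 746 TPM. The component holds 3 transcripts, which differed unequally. comp127071_c0_seq2 stood at 196 ± 24.0 TPM with MCTR3 (SD, n = 4) and 630 ± 307 TPM with the others (SD, n = 8; limma adjusted p = 0.0056 among transcripts), while comp127071_c0_seq3 stood at 73.9 ± 3.55 and 80.2 ± 8.96 TPM (limma adjusted p = 0.38).

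**Figure D2:**
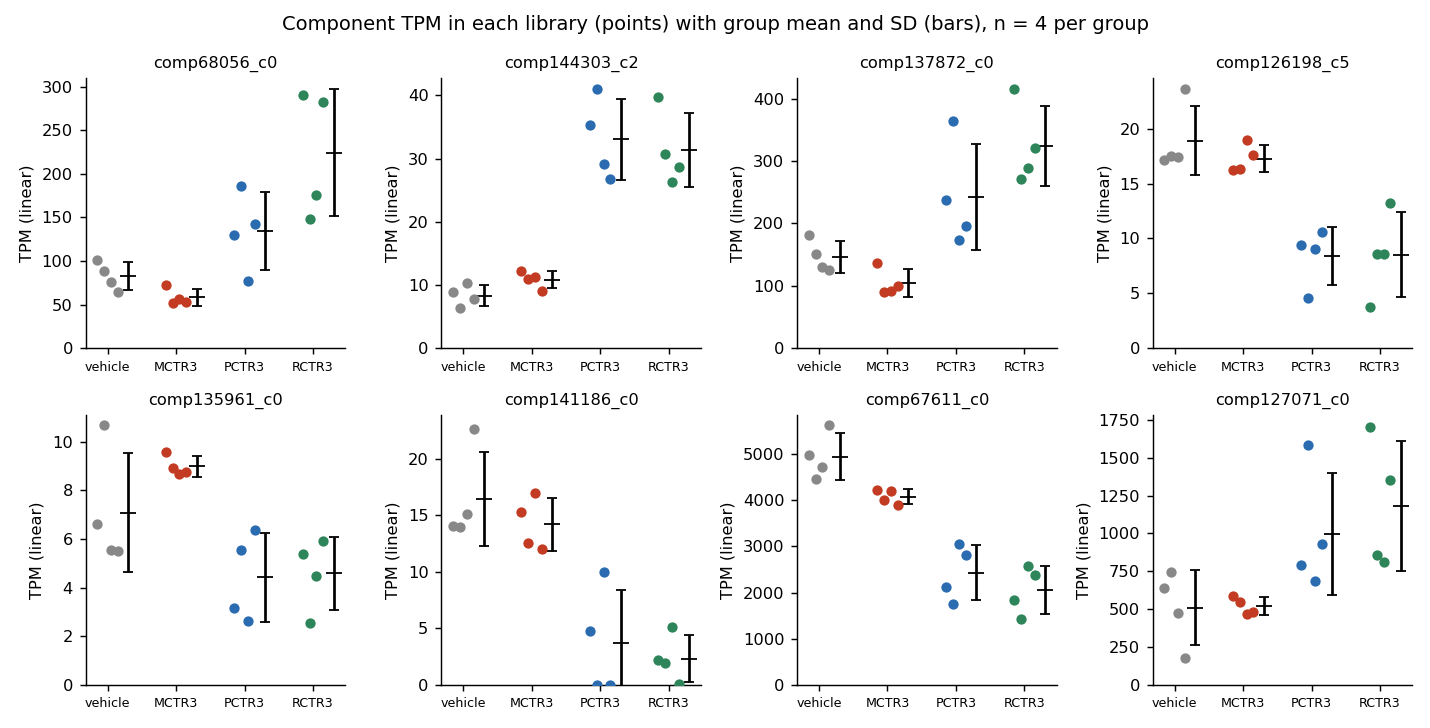
TPM of 8 components on linear axes, 1 point per library in the order of the replicate number, with bars for the mean and SD of each group (n = 4). comp68056_c0, comp144303_c2, comp137872_c0 and comp127071_c0 were lower and the other 4 higher with MCTR3. In each panel the MCTR3 points lie on one side of all PCTR3 and RCTR3 points. The naming rule required this of comp68056_c0, comp144303_c2, comp126198_c5 and comp135961_c0.

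The 27 components more than 2-fold lower with MCTR3 had mean levels from 2.81 to 224 TPM (median 23.7 TPM), and 21 of them hold 1 transcript. In 24 of the 27 the MCTR3 libraries lay below all 8 others, as they did in 1213 of all 15690 tested components. The 2 components more than 2-fold higher were comp126198_c5 and comp141186_c0, described above. Only a few components crossed from under to over 1 TPM. With MCTR3, 5 components were under 1 TPM in all 4 libraries and at 1 TPM or more in all 8 others, and 0 did the reverse. They were comp122496_c0, comp134229_c0, comp135837_c3, comp138173_c0 and comp141428_c1, picked by that count after the values were seen. For comp122496_c0 the range was 0.279 to 0.824 TPM with MCTR3 and 1.06 to 1.30 TPM with the others. All 5 passed the filter only through the PCTR3 and RCTR3 libraries. They are among the components called lower with MCTR3. As they were picked by these same values, the values are given as a description and their calls are not used as support. No called component was at 0 in every library of either side.

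Among the called components, the share that was higher with MCTR3 rose with level under the deposited scaling. In quintile 1, the least abundant components (median 2.30 TPM), 92 were called higher and 413 lower, so that 18.2% of the calls were higher. In quintile 5, the most abundant (median 96.6 TPM), 1024 were higher and 499 lower, or 67.2%. The share of components called also rose with level, from 16.1% to 48.5%. Among the 100 most abundant components, with mean levels from 1367 to 15540 TPM, 46 were higher, 6 lower and 48 not called, with a median difference of 0.14 on the log2(TPM + 1) scale. The same gradient was present with the common TPM sum (7.46% to 45.0% higher, so that lower calls were the more frequent in every quintile), with the sum over all but the 100 most abundant components (10.6% to 53.4%) and with median centring (23.1% to 72.3%). With quantile normalization, which gives every library the same distribution of levels, the shares were 46.5% and 53.6%, and of the 100 most abundant components 20 were higher and 17 lower.

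**Figure D3:**
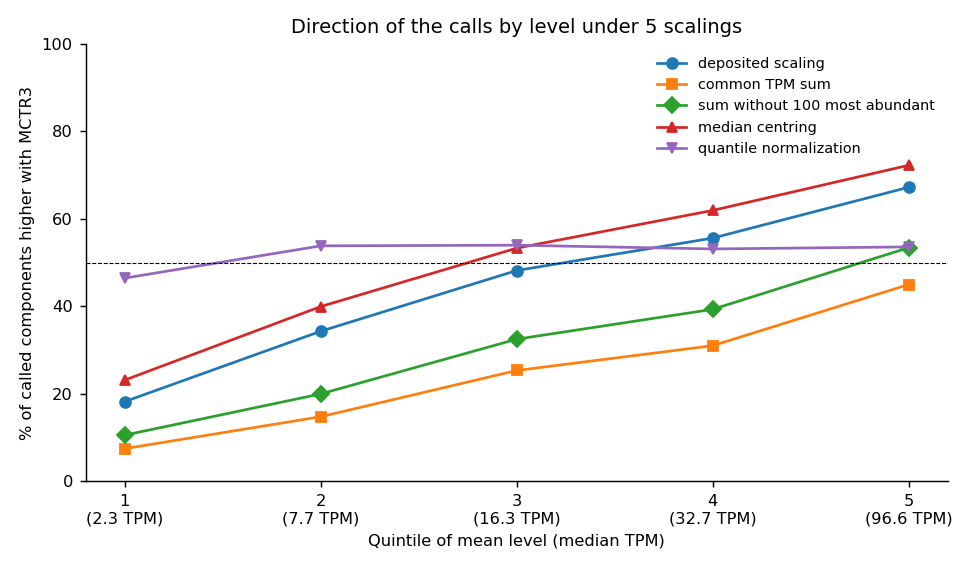
Share of called components that were higher with MCTR3, in percent, in each quintile of mean level (median TPM below the axis), under 5 scalings between libraries. With the deposited scaling the share climbed from 18.2% to 67.2%, and with quantile normalization it lay between 46.5% and 54.0%.

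The 100 most abundant components of a library held 30.2% ± 0.123 of its TPM with MCTR3 (SD, n = 4) and 29.0% ± 0.470 with PCTR3 or RCTR3 (SD, n = 8), a difference of 1.26 percentage points with all MCTR3 libraries above all others (exact permutation p = 0.004, two-sided and the lowest that 4 against 8 libraries can give; 0.0061 after Benjamini-Hochberg adjustment over 3 measures). The MCTR3 libraries held 30.2%, 30.4%, 30.2% and 30.1%, and the other 8 lay between 28.2% and 29.7%. The number of components at 1 TPM or more was 15367 ± 42.4 with MCTR3 (n = 4) and 15496 ± 50.7 with the others (n = 8; exact permutation p = 0.0081, Benjamini-Hochberg 0.0081). The TPM sum of a library, which should be equal in plain TPM but varies in the deposited values, was 1013 ± 9.78 kTPM (kilo-TPM) with MCTR3 and 963 ± 19.4 kTPM with the others (exact permutation p = 0.004, Benjamini-Hochberg 0.0061). The labels do not say what set this sum, and its part in the differences between components was not tested beyond the scalings above.

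Taken 1 conjugate at a time, MCTR3 differed from PCTR3 in 2965 components (18.9%), 1485 higher (9.46%) and 1480 lower (9.43%), and from RCTR3 in 4463 (28.4%), 2274 higher (14.5%) and 2189 lower (14%) (limma with 3 group means, adjusted p under 0.05). These comparisons share the MCTR3 libraries. After rescaling to the common TPM sum the split became 843 to 2131 against PCTR3 and 1226 to 3553 against RCTR3, with the higher count first. With p-values adjusted over the 3 pairs of conjugates together, the counts were 2514 and 3460. The count against PCTR3 hung on single libraries: it was 4009 without PCTR3 library 3, 1335 and 1579 without PCTR3 library 2 or 1, and 1638, 1366 and 1685 without MCTR3 library 2, 3 or 4. Without RCTR3 library 1 the components lower than with RCTR3 numbered 1374. These counts do not test PCTR3 against RCTR3.

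By the same naming rule, comp137872_c0 was among the components lower with MCTR3 than with RCTR3. It stood at 137, 89.5, 91.6 and 100.3 TPM with MCTR3, 237, 364, 173 and 196 TPM with PCTR3, and 416, 271, 289 and 320 TPM with RCTR3. The difference from RCTR3 was -1.62 on the log2(TPM + 1) scale (SE 0.20; limma adjusted p = 0.00065) and that from PCTR3 -1.17 (SE 0.20; limma adjusted p = 0.0052). Its 2 transcripts moved alike, by -1.37 (comp137872_c0_seq2) and -1.44 (comp137872_c0_seq4) against both conjugates together. comp91150_c0 was lower with MCTR3 than with PCTR3, at 2.41, 2.93, 2.40 and 0.614 TPM against 7.97, 13.4, 4.49 and 4.30 TPM (difference -1.42, SE 0.44; limma adjusted p = 0.04). That call ended in 9 of 25 alternatives, among them without any 1 MCTR3 library, and the adjusted p ranged from 0.014 to 0.12. Against RCTR3, whose libraries held 11.6, 1.44, 6.98 and 5.42 TPM, comp91150_c0 did not pass (limma adjusted p = 0.076). For comp141186_c0 the difference was 2.42 against PCTR3 (SE 0.67; limma adjusted p = 0.026) and 2.42 against RCTR3 (limma adjusted p = 0.017), and the call against RCTR3 ended with a pseudocount of 0.1 (limma adjusted p = 0.083) and without RCTR3 library 4 (0.051), in a range from 0.0038 to 0.083. The call of comp126198_c5 against PCTR3 (limma adjusted p = 0.022) ended without MCTR3 library 3 or 4 or PCTR3 library 2, with adjusted p-values of 0.061, 0.052 and 0.067, in a range from 0.0067 to 0.067.

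PCTR3 and RCTR3 differed from each other in 0 components (0.0%) by limma, with a smallest adjusted p of 1.0, and 517 of the 15690 (3.30%) had an unadjusted p under 0.05. For 95.5% of the 15690 the 95% confidence interval of the PCTR3 minus RCTR3 difference lay within 1.5-fold, and for 99.8% within 2-fold. Smaller differences may exist. Among the 5221 components of the joint comparison 162 (3.10%) had such a p, a share that the choice of components partly fixes: the joint comparison counts any PCTR3 minus RCTR3 difference as spread, so that components with a large one were less likely to be called. When p-values were adjusted over the 3 pairs together, 41 components passed between PCTR3 and RCTR3, 22 higher and 19 lower with PCTR3. The cutoff of that adjustment is set mostly by the many low p-values of the pairs with MCTR3, so it is looser for PCTR3 against RCTR3. The 3.30% with an unadjusted p under 0.05 is below what that threshold passes without any difference. The 41 therefore do not show that PCTR3 and RCTR3 differ. The lowest p belonged to comp132567_c0, at 2.77, 4.23, 3.95 and 2.72 TPM with PCTR3 and 6.31, 5.53, 5.73 and 5.29 TPM with RCTR3, with MCTR3 at 2.87 ± 0.364 TPM (SD, n = 4). Its PCTR3 minus RCTR3 difference was -0.62 on the log2(TPM + 1) scale (limma adjusted p = 1.0 within the pair and 0.0069 over the 3 pairs). Next on that side was comp52528_c0, at 8.04 ± 1.18 TPM with PCTR3 and 11.9 ± 1.82 TPM with RCTR3 (SD, n = 4). On the other side stood comp105416_c0, at 51.9 ± 3.96 and 41.1 ± 1.69 TPM, and comp105358_c0, at 79.1 ± 4.87 and 64.1 ± 7.75 TPM (SD, n = 4; limma adjusted p = 1.0 within the pair for each of these 3).

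Within the called components PCTR3 lay nearer to MCTR3 than RCTR3 did, and this was not so clear without PCTR3 library 3. The mean with PCTR3 was the nearer one in 2004 of the 2637 components higher with MCTR3 (76.0%). Among the 2584 lower ones it was the nearer in 1772 (68.6%). The components were called on these same PCTR3 and RCTR3 libraries. No such share was computed over all tested components, so whether the called ones stand apart in this was not tested. The median PCTR3 minus RCTR3 difference was 0.04 and -0.03 on the log2(TPM + 1) scale in the higher and lower components. Over all tested components it was 0.0027. The median MCTR3 differences in the higher and lower components were 0.25 and -0.32 from PCTR3 and 0.29 and -0.36 from RCTR3. Without PCTR3 library 3, an alternative chosen after seeing the data, PCTR3 was the nearer one in 1410 (53.5%) and 1223 (47.3%), and the median PCTR3 minus RCTR3 differences were 0.0061 and 0.0052. That library was the one nearest to MCTR3 among the 8, so its removal was likely to shift the PCTR3 mean away from MCTR3. No other library was left out for this measure, so whether it hung on a single library was not tested. Over the 5221 called components PCTR3 library 3 lay inside the range of the 4 MCTR3 libraries in 1442 (27.6%), more than any other of the 8. PCTR3 library 4 did so in 640 (12.3%), and the remaining 6 in 138 to 461 (2.64% to 8.83%). On a scale where the MCTR3 mean is 0 and the mean of the other 8 is 1, the median position of PCTR3 library 3 was 0.522, and those of the other 7 ran from 0.846 (PCTR3 library 4) to 1.35 (PCTR3 library 2). Without PCTR3 library 3 the joint comparison called 5916 components, and without any other single library between 3790 and 5334.

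The MCTR3 libraries were also the most alike. The median SD of a component over the 4 libraries of a group was 0.097 on the log2(TPM + 1) scale with MCTR3, 0.131 with PCTR3, 0.119 with RCTR3 and 0.127 in vehicle. The SD was lowest with MCTR3 among the 3 conjugates in 7498 components (47.8%), where equal spread would give each of the 3 an equal share. Spearman correlations across components, which are no independent replicates, were 0.993 to 0.996 between MCTR3 libraries, 0.985 to 0.995 between PCTR3 and RCTR3 libraries, and 0.977 to 0.994 between the sides. The PCTR3 and RCTR3 pairs include pairs across these compounds, so their range is not on the same basis as that of MCTR3. When each group was given its own weight for its spread, the joint comparison called 5951 components in place of 5221. The leading principal component of the 12 libraries held 44.0% of the variance, and the next 12.4%. Scores on the leading one were between -21.6 and -17.7 for MCTR3 and between -4.76 and 23.3 for the others, with PCTR3 library 3 again the nearest to MCTR3.

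**Figure D4:**
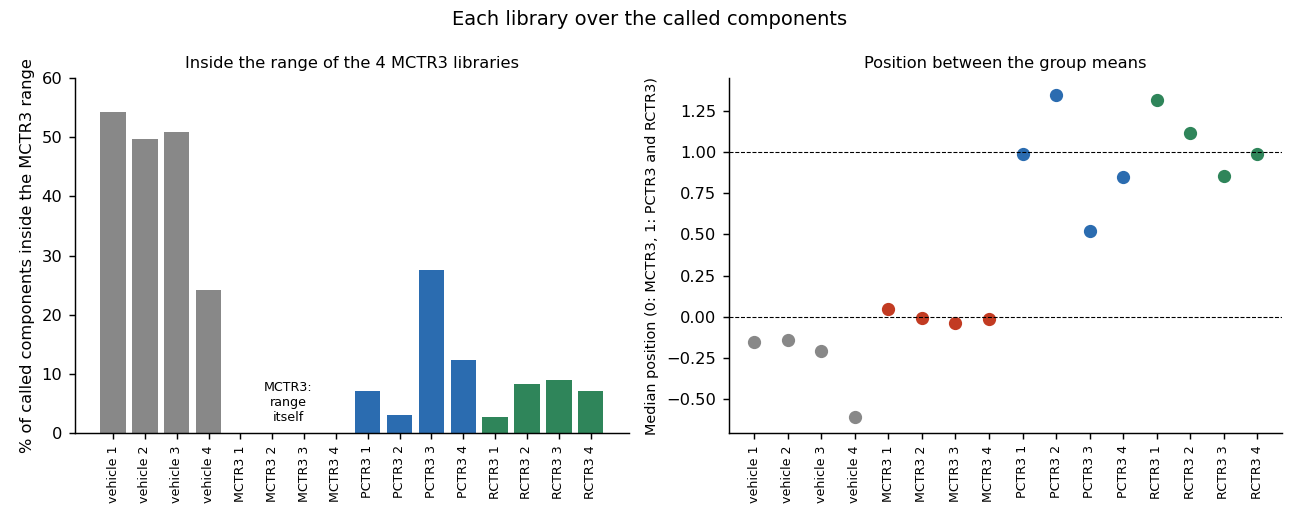
Left, the percent of the 5221 called components in which a library lay within the range of the 4 MCTR3 libraries. Right, each library's median position over those components, with the MCTR3 mean at 0 and the mean of the PCTR3 and RCTR3 libraries at 1. PCTR3 library 3 lies closest to MCTR3 among the 8, at 0.522, and the vehicle libraries lie between -0.605 and -0.138. The components were called on the MCTR3, PCTR3 and RCTR3 libraries shown, which partly fixes the values of the latter 8.

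Vehicle libraries took no part in choosing the 5221 components, and for nearly all of them the vehicle mean was nearer to MCTR3 than to PCTR3 and RCTR3: in 2582 of the 2637 higher with MCTR3 (97.9%) and in 2490 of the 2584 lower (96.4%). Vehicle stood beyond MCTR3, on the side away from the other conjugates, in 2170 (82.3%) and 1916 (74.1%) of them. It lay past the PCTR3 and RCTR3 mean in 5 and 5. These shares were not computed over all 15690 tested components. The TPM sum was 1065 kTPM in vehicle, beside 1013 kTPM with MCTR3 and 963 kTPM with the others. Its part in these shares was not tested. Vehicle library 4 lay farther out than the other 3, at a median position of -0.605 against -0.207 to -0.138. Without it the vehicle mean was nearer to MCTR3 in 97.8% and 96.5%, and beyond MCTR3 in 75.1% and 70.4%. The order vehicle, MCTR3, then PCTR3 and RCTR3 is also the order of the library numbers. In the direct test of MCTR3 against vehicle, 0 of the 15690 components (0.0%) passed (limma over 16 libraries), with 1507 (9.60%) at an unadjusted p under 0.05. Of the 5221 components, 720 (13.8%) had an unadjusted p under 0.05 in that test. The 95% confidence interval of the MCTR3 minus vehicle difference lay within 1.5-fold for 94.5% of the 5221. Over all 15690 tested components that share was 93.9%, so it does not set the called ones apart. That comparison shares the MCTR3 libraries with the joint one.

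**Figure D5:**
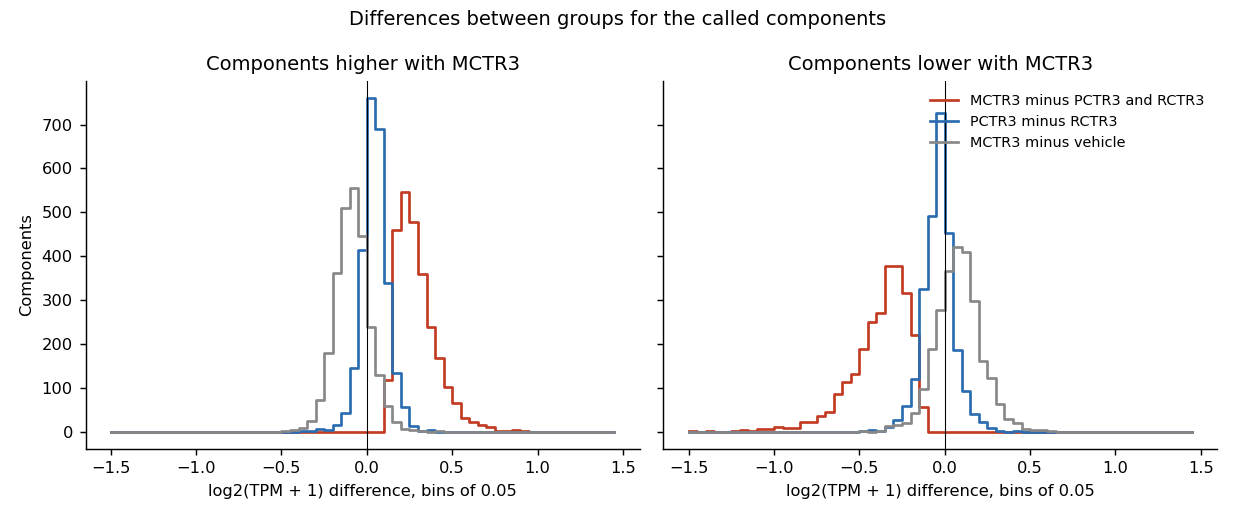
Number of called components by log2(TPM + 1) difference, in bins of 0.05, for the 2637 components higher (left) and the 2584 lower (right) with MCTR3. The red line is the difference the calls were made on, with medians of 0.27 and -0.34; the blue PCTR3 minus RCTR3 line has medians of 0.04 and -0.03, and the grey MCTR3 minus vehicle line medians of -0.09 and 0.08.

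More single transcripts than component totals differed by over 2-fold. Of 27606 transcripts under the same filter, 5530 (20.0%) passed, 2671 higher and 2859 lower with MCTR3 (limma, adjusted p under 0.05). More than 2-fold differences were found in 142 higher and 353 lower of the 27606 transcripts, against 29 of the 15690 components. Of the transcripts beyond 2-fold, 31 lay in a component that was itself beyond 2-fold and 212 in a component whose total was not called. The labels do not say how reads shared by transcripts of a component were divided, and the part of this in such differences was not tested. In 331 of the 15690 components 1 or more transcripts were higher and 1 or more lower with MCTR3. The 8530 components with 1 transcript could not be among them. Of the 331, the total passed in 120 and did not pass in 211. Over all 15690 components 33.3% passed, so the split of the 331 is no result about them. In the other direction, 1353 of the 5221 called components held no transcript that passed alone. Components with 1 transcript were called in 34.6% of cases (2954 of 8530) and those with 10 or more in 30.5% (216 of 708). Among the calls, 43.1% were lower with MCTR3 in the former and 64.8% in the latter, with median levels of 15.6 and 24.2 TPM.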

How the data were processed

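Values were the authors' deposited log2 TPM per transcript, 1 column per library; kallisto and sleuth are named, without versions or roles, per the submitters' processing notes. The labels do not state the transcript set, its filters or the origin of the unequal TPM sums. Read depth cannot be had from TPM, so precision rests on the number of libraries alone and no counting intervals are given.

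Values were turned to TPM, with the file's lowest value (-34.92) as 0, and summed by component. limma 3.58.1 in R 4.3.3 (empirical Bayes with an intensity trend, two-sided, Benjamini-Hochberg over all components) was run on log2(TPM + 1), which understates changes of low components, and was tested on simulated data. The joint comparison used 2 groups (4 and 8 libraries), pairs of conjugates 3 group means, and MCTR3 against vehicle all 16 libraries. Single library measures were compared by exact permutation in SciPy 1.17.1. In each comparison the components named had the 2 highest and 2 lowest differences among those called, above 0 in all its libraries and without overlap; between PCTR3 and RCTR3, where none was called, the lowest p on each side was used. The comparison and its rules were chosen with earlier results of these data known. Alternatives were pseudocount, filter, scaling, moderation, weights, model, adjustment over pairs, transcripts as features, a replicate block and each library left out.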

Additional observations from a re-analysis of the deposited data

Results flagged for a closer look

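In groups of 4, 1 library stood far from the other 3 by Dixon's criterion in 4 of 64 groups examined, and chance marks about 1 group in 20. comp126198_c5 stood at 23.6 TPM in vehicle library 4 and at 17.2 to 17.5 TPM in the other vehicle libraries. comp141186_c0 stood at 22.7 TPM in vehicle library 4 and at 13.99 to 15.1 TPM in the others. The number of components at 1 TPM or more was 15396 in PCTR3 library 4 and 15504 to 15521 in the other PCTR3 libraries. The TPM sum was 926 kTPM in RCTR3 library 2 and 959 to 966 kTPM in the other RCTR3 libraries. Neither vehicle value enters a comparison between conjugates.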

How the results depend on the processing

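The joint count of 5221 stayed within 1.5 times under every alternative run, from 3790 to 5916 with 1 library left out and from 4962 (filter of 5 TPM, 12550 components tested) to 5951 (weights per group) otherwise; 3 group means gave 5050 and all 16 libraries 5034. With the common TPM sum the joint count was 5441, of which 4122 were among the 5221. There the higher count fell from 2637 to 1538 and the lower count rose from 2584 to 3903, both by over 1.5 times. With the replicate block, which no label or correlation backs as a pairing, the joint count was 5243, of which 4974 were among the 5221. The block changed no count by over 1.5 times: 3031 against PCTR3, 4435 against RCTR3, and 0 for PCTR3 against RCTR3 and for MCTR3 against vehicle. Deviations of same-numbered libraries from their group means correlated at -0.25 to 0.22, over 0.1 in 4 of 12 pairs, and in 5 of the 12 a library correlated best with its own number in the other group. With 1 library left out the count was 1335 to 4009 against PCTR3, 2979 to 4947 against RCTR3, 0 in every case between PCTR3 and RCTR3, and 0 to 1 against vehicle (1 without PCTR3 library 3). Between PCTR3 and RCTR3, adjustment over the 3 pairs together gave 41, at a cutoff set mostly by the pairs with MCTR3. The share in the 100 most abundant components, the number at 1 TPM or more and the TPM sum kept their direction and their side of the threshold under all alternatives run, with differences of 1.16 to 1.37 percentage points, -147 to -114 components and 44.2 to 53.7 kTPM with 1 library left out. Other definitions moved them further: 0.77 and 1.67 percentage points for the 50 and 200 most abundant components, -160.8 components at 5 TPM or more and -190 with the common TPM sum, and 22.4 kTPM for the sum without the 100 most abundant. The named components gave 475 values under alternatives: 0 changed sign, 14 fell short of the threshold, and 4, all between PCTR3 and RCTR3 with adjustment over the 3 pairs, newly passed it. Unknown read depth limits what can be said of rare components.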
